A study of Homo sapiens with 6 samples.

Results

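The TGF-beta and bone morphogenetic protein (BMP) signalling genes described here were LRRC32, BMPER, TGFB1, TGFB2, TGFBR2, ID1, ID2, ID3 and SMAD7, chosen by name, 9 of the 58825 genes in the deposited tables. They were measured by mRNA sequencing in NCI-H460, an established human lung cancer cell line that the labels call lung adenocarcinoma and that is generally described as large cell carcinoma. Cells were infected with lentivirus carrying a control short hairpin RNA (NC-shRNA, a hairpin that the labels name GFP knockdown) or a hairpin against PRMT5 (PRMT5-shRNA), and both stable lines were kept under puromycin selection. PRMT5 is an arginine methyltransferase, and the comparison asked which transcripts differ when its level is lowered. There were 3 libraries in each group. The labels do not say which PRMT5 hairpin was sequenced, or whether it was the same in all libraries. An effect of lowering PRMT5 and an effect particular to a hairpin thus cannot be told apart.

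TGF-beta is secreted in a latent form, wrapped in its own propeptide, and must be released before it can bind its receptor. LRRC32 (GARP) is a membrane protein that tethers latent TGF-beta to the cell surface and is best known on regulatory T cells, platelets and endothelial cells. Active ligand binds TGFBR2, which recruits the type I receptor and leads to phosphorylation of SMAD proteins, whereas BMPs use a related set of receptors and SMADs that induce the ID genes. BMPER is a secreted protein that binds BMPs and can restrain or promote their signal, and SMAD7 is an inhibitor that both arms induce as negative feedback.

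PRMT5 itself stood at 133 ± 8.90 CPM (counts scaled to a common library size, SD, n = 3) in NC-shRNA and 43.2 ± 4.28 (SD, n = 3) in PRMT5-shRNA libraries, 32.6% of control (edgeR adjusted p = 0.0063). The total estimated count was 53531257 to 70518401 per library. In each library 1214 to 1319 genes had exactly 4 counts, against 283 to 546 with 3 or 5, so 1 count is not 1 sequenced fragment and small counts carry fewer independent reads than their size. Epithelial markers, summed over 6 genes that were all detected, ranged from 1480 to 1660 CPM in NC-shRNA and from 1335 to 1366 CPM in PRMT5-shRNA libraries. Most of these sums came from KRT8 (means of 904 and 772 CPM) and KRT18 (554 and 473 CPM). Of the 6, EPCAM and KRT8 were lower without overlap, as were 10.7% of all genes tested, and KRT18, KRT19, CDH1 and CLDN4 overlapped between the groups. In such bulk RNA, fewer cells expressing a gene and less RNA per cell cannot be told apart.

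On a per-length scale, FPKM (fragments scaled to transcript length and library size), the 9 genes covered a wide range. In NC-shRNA cells the order from high to low was ID1, ID3, TGFBR2, ID2, TGFB1, TGFB2, SMAD7, BMPER and LRRC32. ID1, a dominant-negative partner of basic helix-loop-helix transcription factors, had FPKM levels of 90.96, 82.89 and 89.61 in the NC-shRNA libraries. LRRC32, at the other end, had 0.11, 0.11 and 0.14. Neighbours in this order did not overlap between libraries except TGFB2 and SMAD7, whose NC-shRNA FPKM levels of 1.70 to 1.98 and 1.43 to 1.81 crossed. In PRMT5-shRNA cells the same order held and no neighbours overlapped, with TGFB2 at its lowest (1.97 FPKM) just above SMAD7 at its highest (1.89 FPKM).

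**Figure D1:**
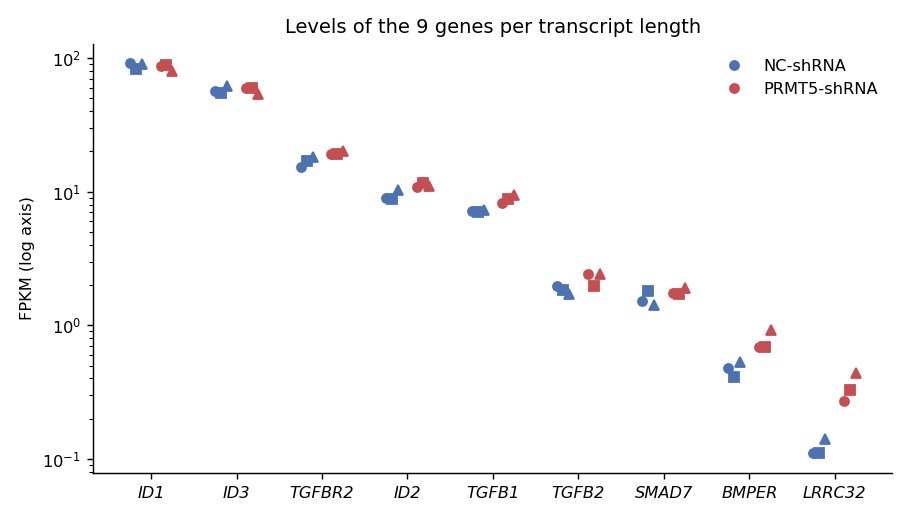
FPKM (log axis) of the 9 genes in each library, in the order of their NC-shRNA means. Blue points are NC-shRNA and red points PRMT5-shRNA libraries, and circle, square and triangle are replicates 1, 2 and 3. ID1 lies above 80 FPKM and LRRC32 below 0.5 FPKM in every library, and the red points of LRRC32 and BMPER lie above the blue ones.

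LRRC32 had the largest log2 difference of the 9 genes in edgeR, at low expression. LRRC32 (ENSG00000137507) lies on the minus strand of chromosome 11 from 76657524 to 76670747 (GRCh38, GENCODE release 29), with AP001189.1 on the opposite strand. Its estimated counts were 42, 41 and 47 with NC-shRNA against 76, 120 and 129 with PRMT5-shRNA. As CPM these were 0.626, 0.591 and 0.756 against 1.39, 1.72 and 2.24. The lowest PRMT5-shRNA library thus lay above the highest NC-shRNA library, and PRMT5-shRNA replicate 3 was the highest. Means were 0.658 ± 0.0871 and 1.78 ± 0.429 CPM (SD, n = 3 each), a fold change of 2.71 with a 95% interval of 1.74 to 4.21. On the log2 scale the difference was 1.44 (SE 0.269), and after adjustment over the 20295 genes tested it did not pass 0.05 (edgeR adjusted p = 0.168). It ranked 130th by p, in the lowest 0.641% of genes tested. With DESeq2 and with edgeR's likelihood ratio test the same difference passed, with adjusted p-values of 0.00526 and 0.00897. Over all 16 alternatives in which LRRC32 was tested, the adjusted p ranged from 0.00526 to 0.412. Without PRMT5-shRNA replicate 3 the log2 difference was 1.24.

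If each fragment gives 4 counts, the LRRC32 values correspond to 10.2 to 11.8 fragments in NC-shRNA against 19 to 32.2 in PRMT5-shRNA libraries. A fit on counts divided by 4 gave a log2 difference of 1.45 (edgeR adjusted p = 0.146). LRRC32 and BMPER were both drawn by the study in a heat map of T cell regulatory genes from these same libraries, so the direction seen here is not independent evidence of theirs.

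Markers of the cell types in which LRRC32 is best known were examined beside it. Of 9 regulatory T cell markers, CD3D, CD3E, CD3G, CD2, IL2RA and CTLA4 were at 0 in all 6 libraries, and the list summed to 0.241 to 0.73 CPM in NC-shRNA against 0.758 to 0.869 CPM in PRMT5-shRNA libraries. Of 7 platelet and megakaryocyte markers, PF4, PPBP, GP9 and TREML1 were at 0 throughout, and the sums were 4.62 to 6.42 and 6.24 to 7.02 CPM. The other genes of these 2 lists were detected at low levels and overlapped between the groups. FOXP3, the regulatory T cell transcription factor, had 34, 27 and 15 counts with NC-shRNA against 24 in each PRMT5-shRNA library. CD4 had 15, 16 and 0 against 11, 19 and 26 counts. PTPRC had 0 counts in every NC-shRNA library against 8, 10 and 0 with PRMT5-shRNA, too few to be tested. The platelet integrin ITGA2B had 70, 82 and 163 against 101, 117 and 118 counts. ITGB3 had 11, 4 and 45 against 31, 26 and 60 counts, and GP1BA had 229, 273 and 191 against 251, 324 and 181. The part of these lists in the LRRC32 difference was not tested.

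Of 13 endothelial markers, PECAM1, CDH5, VWF, KDR and CLEC14A were higher in every PRMT5-shRNA than in every NC-shRNA library and ESAM was lower (11% and 10.7% of all genes tested were higher or lower without overlap). VWF, the von Willebrand factor gene, had 0 counts with NC-shRNA in every library against 128, 105 and 122 counts with PRMT5-shRNA, and passed edgeR's threshold (adjusted p = 0.0341). KDR, a receptor for vascular endothelial growth factor, had 0 against 12, 22 and 26 counts. TIE1, EMCN and ECSCR, other defining markers, were also at 0 in all NC-shRNA libraries. With PRMT5-shRNA they had 8, 0 and 0, 11, 4 and 0, and 8, 0 and 0 counts, too few to be tested. The 13 genes summed to 80.4 to 87.7 CPM in NC-shRNA against 82.4 to 87.2 CPM in PRMT5-shRNA libraries. Most of these sums came from ESAM (means of 48.8 and 41.5 CPM), EGFL7 (21.4 and 21.6) and CDH5 (10 and 12.4). The part of the endothelial transcripts in the LRRC32 difference was not tested. Of 8 fibroblast markers, COL1A2 and PDGFRA were at 0 throughout, COL3A1 and PDGFRB were higher without overlap, and the sums were 117 to 142 and 110 to 132 CPM.

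BMPER (ENSG00000164619) lies on the plus strand of chromosome 7 from 33904308 to 34156356, with no annotated gene overlapping it. Its counts were 317, 271 and 307 in NC-shRNA against 344, 447 and 480 in PRMT5-shRNA libraries. In CPM the values were 4.72, 3.91 and 4.94 against 6.30, 6.39 and 8.34. The groups did not overlap, and PRMT5-shRNA replicates 1 and 2 lay close together below replicate 3. Means of 4.52 ± 0.544 and 7.01 ± 1.15 CPM (SD, n = 3 each) gave a 1.55-fold higher level, with a 95% interval of 1.17 to 2.05. The log2 difference of 0.63 (SE 0.171) did not pass after adjustment (edgeR adjusted p = 0.247), although 3.13% of genes tested had a p as small, and over 19 alternatives its adjusted p ranged from 0.0588 to 0.494. Without PRMT5-shRNA replicate 3 the log2 difference was 0.49, and without NC-shRNA replicate 2 it was 0.54, in both cases less than 1.5-fold.

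The reference promoter table (RefSeq, GRCh38.p14) holds windows of 300 bases, from 250 before to 50 after a start site, for 8 of the 9 genes, all but LRRC32. They were searched on both strands for GTCTAGAC and CAGACA, which contain SMAD-binding boxes, GGCGCC, a GC-rich SMAD-type element, and CACGTG, the E-box core. Both BMPER windows held GGCGCC, which 19.2% of all 35116 promoter windows also held. They are shown because BMPER was the only one of these 8 genes past 1.5-fold, and the capitals mark GGCGCC, at -122 in the first window and at -123 and -59 in the other, counted from the start site.
BMPER, chr7:33904665-33904964, plus strand: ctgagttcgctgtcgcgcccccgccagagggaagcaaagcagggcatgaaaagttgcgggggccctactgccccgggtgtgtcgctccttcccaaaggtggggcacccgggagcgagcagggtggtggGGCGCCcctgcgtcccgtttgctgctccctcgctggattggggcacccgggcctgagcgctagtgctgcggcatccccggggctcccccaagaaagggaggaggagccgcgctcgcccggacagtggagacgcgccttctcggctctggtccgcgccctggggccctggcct
BMPER, chr7:33905289-33905588, plus strand: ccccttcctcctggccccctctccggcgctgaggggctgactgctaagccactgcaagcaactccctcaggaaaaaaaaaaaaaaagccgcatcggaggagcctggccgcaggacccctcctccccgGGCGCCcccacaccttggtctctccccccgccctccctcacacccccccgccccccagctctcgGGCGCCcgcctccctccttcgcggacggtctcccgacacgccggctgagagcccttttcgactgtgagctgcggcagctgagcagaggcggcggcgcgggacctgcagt
TGFB2 held CAGACA at -53 and CACGTG at -49, sharing bases, which 16.9% and 7.26% of all windows held. Its window, chromosome 1 from 218345086 to 218345385, lies wholly before the GENCODE gene start of 218346235. The RefSeq start site used for TGFB2 thus differs from the GENCODE gene start. GTCTAGAC, in 0.202% of all windows, was in none of these windows, and no window of ID1, ID2, ID3, SMAD7, TGFB1 or TGFBR2 held any of these letters. A match is a string of letters in a window and not evidence of binding. Sequence outside these windows was not searched, so an absence here does not show that a gene lacks such an element.

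Of the ligands, TGFB1 was slightly higher in PRMT5-shRNA cells. TGFB1 (ENSG00000105329, chromosome 19 from 41301587 to 41353911, minus strand) carries the name AC011462 in the deposited tables and was identified by its Ensembl identifier. It overlaps HNRNPUL1, CCDC97, AC011462.1 and TMEM91 on the opposite strand, and how strand entered the counting is not given in the sources used here, so reads of these genes may be shared. Its CPM values were 28.4, 27.1 and 27.7 in NC-shRNA against 30.4, 32.9 and 34.8 in PRMT5-shRNA libraries. The groups did not overlap. The fold change was 1.18 (95% interval 1.03 to 1.35) and the log2 difference 0.24 (SE 0.0815, edgeR adjusted p = 0.312), with a p as small in 7.27% of genes tested. TGFB2 (chromosome 1 from 218346235 to 218444619, plus strand, containing TGFB2-OT1) had CPM values of 14.6, 13.2 and 12.0 against 16.6, 13.8 and 16.7. PRMT5-shRNA replicate 2 fell within the NC-shRNA range, and the log2 difference of 0.24 had an interval of -0.06 to 0.54 (edgeR adjusted p = 0.469). TGFB1 exceeded TGFB2 on the FPKM scale by a factor of 3.92 ± 0.339 in NC-shRNA against 3.93 ± 0.524 in PRMT5-shRNA libraries (SD, n = 3 each).

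LRRC32 was also set against TGFB1, whose latent product it tethers, within each library. For every 100 FPKM of TGFB1 there were 1.53, 1.57 and 1.92 FPKM of LRRC32 with NC-shRNA against 3.29, 3.75 and 4.66 with PRMT5-shRNA. The ratio was thus higher in 3 of 3 PRMT5-shRNA libraries, with means of 1.67 ± 0.214 and 3.90 ± 0.696 (SD, n = 3 each). The two-sided exact permutation test gave p = 0.10, the smallest value that 3 libraries against 3 allow. LRRC32 alone already separated the groups and TGFB1 differed little, so the ratio restates the LRRC32 difference and is not further evidence.

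TGFBR2, the type II receptor (chromosome 3 from 30606502 to 30694142, plus strand, opposite AC096921.1), had the highest mean FPKM over the 6 libraries of the receptors listed. Its CPM values were 87.8, 95.3 and 99.0 in NC-shRNA against 102, 104 and 107 in PRMT5-shRNA libraries. The groups did not overlap, but the difference was small, with a fold change of 1.11 and an interval of 0.998 to 1.24 (edgeR adjusted p = 0.395). Other settings left the log2 difference between 0.10 and 0.21.

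The ID genes, read as targets of the BMP arm, differed little. ID1 (chromosome 20 from 31605283 to 31606515) had CPM values of 137, 122 and 129 in NC-shRNA against 122, 126 and 113 in PRMT5-shRNA libraries, and the groups overlapped. Its log2 difference was -0.10 (SE 0.0716, edgeR adjusted p = 0.601), and the interval of the fold change, 0.829 to 1.05, leaves out any decrease past 1.5-fold. ID3 (chromosome 1 from 23557918 to 23559794, minus strand) had 103, 98.2 and 107 against 102, 103 and 92.0 CPM, with a fold change interval of 0.861 to 1.08 (edgeR adjusted p = 0.799). Its log2 difference was -0.05, and 0.0073 to 0.0074 in the fits on FPKM, so no direction can be given. ID2 (chromosome 2 from 8678845 to 8684453, opposite ID2-AS1) had 24.3, 23.4 and 26.8 against 27.5, 29.5 and 27.6 CPM. It was higher in every PRMT5-shRNA library, with a log2 difference of 0.18 (SE 0.0872) and an interval of -0.02 to 0.39 (edgeR adjusted p = 0.43). ID2 was less abundant than ID1: for every 100 FPKM of ID1 there were 10.7 ± 0.844 FPKM of ID2 in NC-shRNA against 13.0 ± 0.575 in PRMT5-shRNA cells (SD, n = 3 each, exact permutation p = 0.10, the smallest possible). ID1 and ID3 together made up 92.2% to 94.0% of the summed FPKM of ID1 to ID4 in every library.

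SMAD7 (chromosome 18 from 48919853 to 48952052, minus strand), the inhibitory SMAD, had CPM values of 9.37, 10.9 and 8.45 in NC-shRNA against 10, 10.1 and 10.9 in PRMT5-shRNA libraries. The groups overlapped, and the log2 difference of 0.11 (SE 0.13) had an interval of -0.20 to 0.41 (edgeR adjusted p = 0.774). These libraries do not narrow the SMAD7 difference further than that interval.

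**Figure D2:**
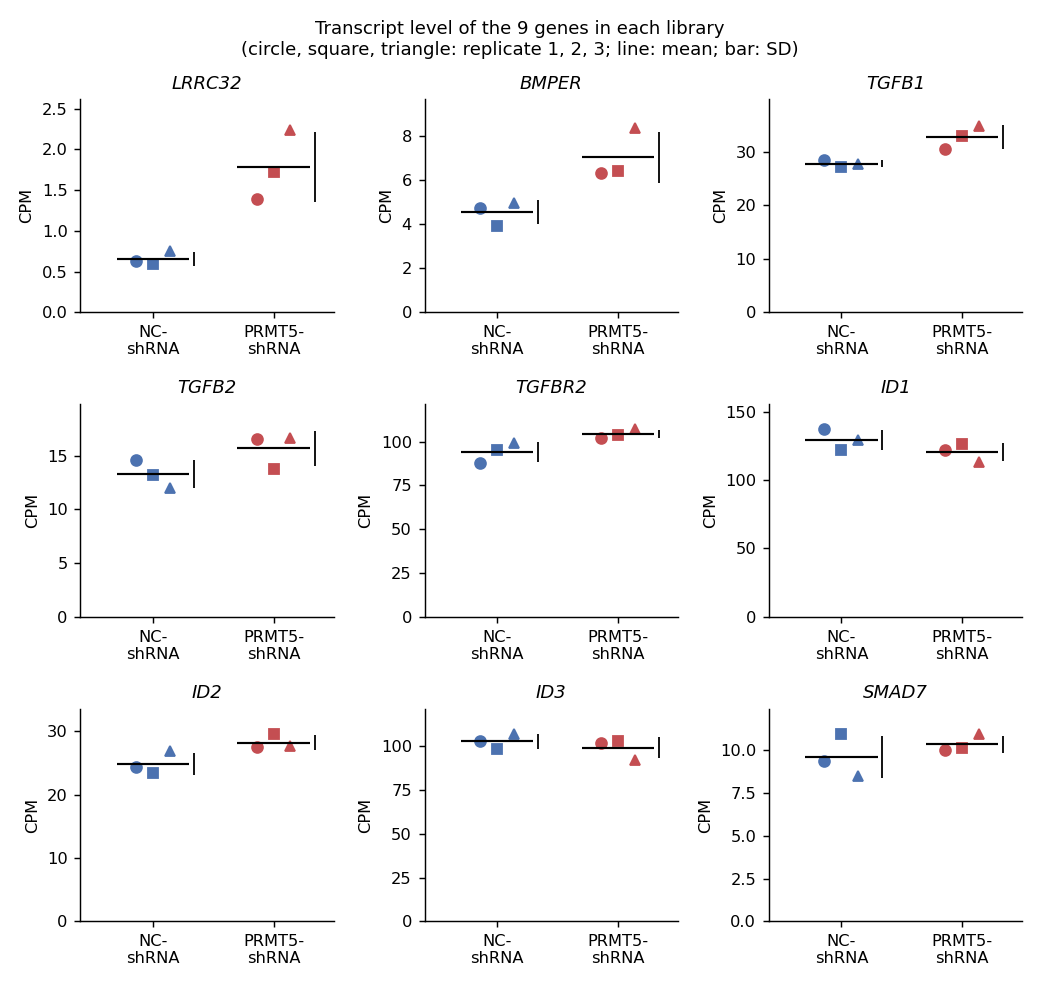
CPM of each of the 9 genes (y axes from 0) in the 3 NC-shRNA (blue) and 3 PRMT5-shRNA (red) libraries, with the mean as a line and the SD as a bar beside the points. LRRC32, BMPER, TGFB1, TGFBR2 and ID2 do not overlap between the groups, and the other 4 do.

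Over the 9 genes, all of which passed the filter on low counts, 7 had a log2 difference above 0 and 2, ID1 and ID3, below 0, with a median of 0.18 against 0.007 over all genes tested. With edgeR's quasi-likelihood test none had an adjusted p under 0.05, a level that 0.069% of all genes tested reached, whereas 3 had an unadjusted p under 0.05, as did 12.8% of all genes tested. That count of 3 was 6 with library totals alone, where 2689 of 20295 genes had such a p. It was 2 with the likelihood ratio test, where 1753 of 20295 did. The FPKM fits with a minimum mean FPKM tested 8 of the 9 genes, leaving out LRRC32, and gave 4 to 5. In them 2165 to 2267 of 14707 genes had such a p. Without the minimum the count was 6 of 9, beside 3679 of 32052 genes. DESeq2, which called 2.61% of all genes tested, and the likelihood ratio test, which called 0.907%, each called 1 of the 9, LRRC32. LRRC32 and BMPER passed the looser threshold that the study's volcano plot uses, an unadjusted p under 0.05 with a fold change over 1.5, in the higher direction, which 2.53% of all genes tested passed. BMPER no longer passed it without NC-shRNA replicate 2 or PRMT5-shRNA replicate 3, leaving 1. No member passed it in the lower direction, which 1.29% of all genes tested did. Groups did not overlap for 5 of the 9, all higher, where 11% of all genes tested were higher without overlap and 10.7% lower. These 5, LRRC32, BMPER, TGFB1, TGFBR2 and ID2, each had the smallest exact permutation p possible, 0.10. That p follows from the lack of overlap and is not a second result. The study drew LRRC32 and BMPER from these same libraries, and the 9 genes were chosen with earlier results of these data known. Counts of the 9 set beside shares of all genes tested are thus not independent evidence. Long transcripts were slightly higher in PRMT5-shRNA cells in general, with a Spearman correlation of 0.136 between transcript length and log2 difference across 20221 genes, which are not independent replicates. Measured from the median of genes of like length, the log2 difference was 1.44 for LRRC32, 0.60 for BMPER, 0.25 for TGFB1, 0.12 for TGFBR2 and -0.04 for ID1.

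**Figure D3:**
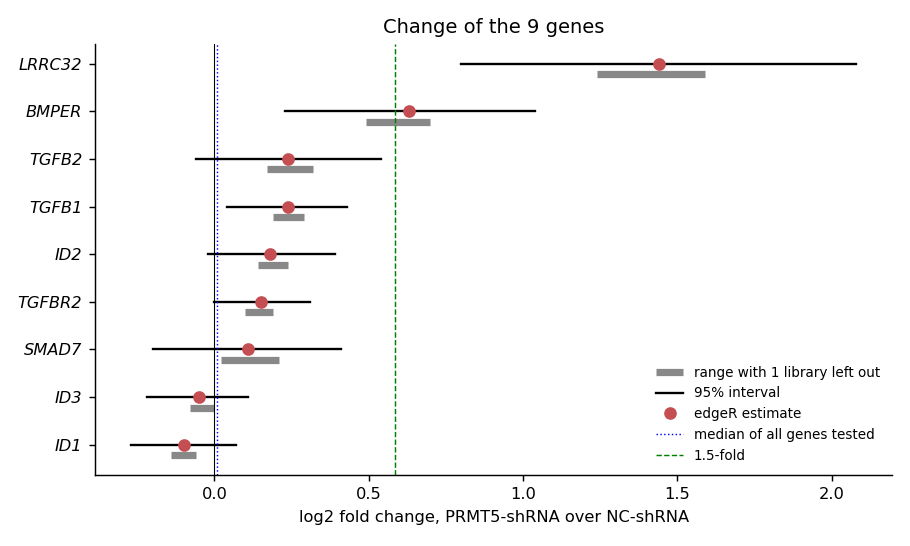
Log2 fold change of the 9 genes, PRMT5-shRNA over NC-shRNA, from edgeR (points) with 95% intervals (black lines) and the range of estimates with 1 library left out (grey bars). The whole interval of LRRC32, 0.80 to 2.08, lies right of the 1.5-fold line, the interval of BMPER crosses that line, and 6 of the 9 intervals span 0.

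The libraries were not equally far apart in these genes. PRMT5-shRNA replicate 3 was the highest library for LRRC32, BMPER, TGFB1, TGFB2 and TGFBR2 and the lowest for ID1 and ID3, and NC-shRNA replicate 2 was the lowest for LRRC32, BMPER, TGFB1 and ID2. Across the 6 libraries, log2 CPM of LRRC32 correlated with that of BMPER (Pearson r = 0.96) and TGFB1 (r = 0.97), while ID1 correlated with ID3 (r = 0.81). These values describe 6 points that share the difference between the groups. Across 20294 other genes, the profiles most like LRRC32 were MMP2, a gelatinase (r = 0.995), VEGFC, a lymphatic growth factor (r = 0.994), and NCMAP (r = 0.994), and 196 genes exceeded 0.95. For BMPER they were HES1, a repressor in the Notch pathway (r = 0.994), SNX33 (r = 0.994) and CUL9 (r = 0.992), with 86 genes above 0.95.

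The rest of the pathway was described through 9 lists of ligands, carriers, receptors, SMADs, extracellular regulators and targets, 133 genes in all, of which 8 were at 0 in every library and 113 were tested. Of these, 79 (69.9%) had a log2 difference above 0 and 34 below, against 51.2% above 0 among all genes tested, and the median was 0.14, or 0.10 when measured from genes of like length. None passed an adjusted p of 0.05 in edgeR, the smallest being 0.139, while 26 had an unadjusted p under 0.05 (12.8% of all genes tested did) and DESeq2 called 11 (2.61% of all genes tested). The looser threshold was passed by 8 genes in the higher direction (7.08%, against 2.53% of all genes tested) and by 2 in the lower (1.29% of all genes tested). Without PRMT5-shRNA replicate 3 these were 4 and 1. In 33 genes (29.2%, against 11% of all genes tested) the groups did not overlap and PRMT5-shRNA was higher, and in 6 it was lower (10.7% of all genes tested). Leaving out the 9 genes, 72 of 104 (69.2%) lay above 0, with a median of 0.13.

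**Figure D4:**
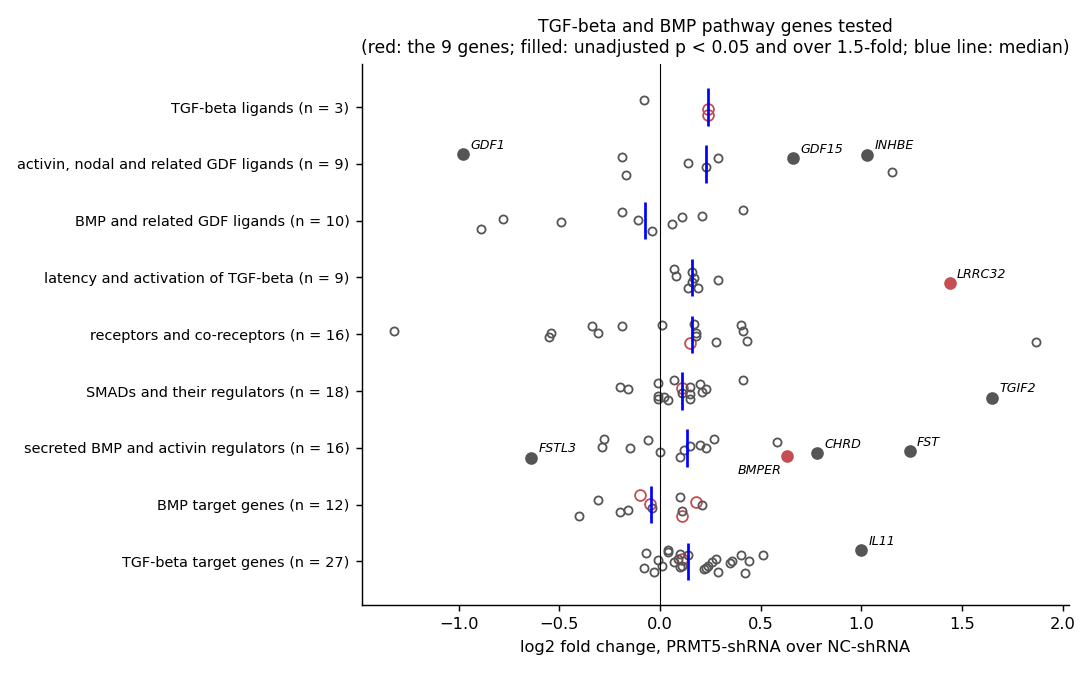
Log2 fold change (x axis) of the tested genes of each pathway list, 1 point per gene, with red for the 9 genes, filled points for an unadjusted p under 0.05 with a fold change over 1.5, and a blue line at each list's median. List medians lie between -0.08 and 0.24, and LRRC32 is the point farthest right in its list.

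Carriers and activators of latent TGF-beta, the list that holds LRRC32, had 9 of 9 tested genes above 0 (51.2% of all genes tested were). Their median was 0.16, or 0.09 when measured from genes of like length. Of these 4 were higher without overlap (11% of all genes tested were), and only LRRC32 passed the looser threshold. FURIN, the convertase that cleaves the TGF-beta propeptide and the gene with the highest mean FPKM of the list, had 17.73, 18.37 and 17.23 FPKM in NC-shRNA against 23.89, 21.51 and 22.50 FPKM in PRMT5-shRNA libraries. Its log2 difference was 0.29 (SE 0.0654, edgeR adjusted p = 0.203). NRROS, a relative of LRRC32 that tethers TGF-beta on myeloid cells, had 8 counts in 1 NC-shRNA library and 0 in the other 5. Of the TGF-beta ligands, TGFB3 had a log2 difference of -0.08 (SE 0.142).

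Secreted BMP and activin regulators, the list that holds BMPER, included 16 tested genes, 11 above 0 (51.2% of all genes tested were). Their median was 0.14, with 6 higher and 2 lower without overlap (11% and 10.7% of all genes tested). FST (follistatin), which binds and neutralizes activins, had CPM values of 8.76, 5.84 and 5.49 in NC-shRNA against 17.8, 13.8 and 15.8 in PRMT5-shRNA libraries. That 2.36-fold difference (95% interval 1.68 to 3.31) had the smallest p of the 113 genes (edgeR adjusted p = 0.139). CHRD (chordin), a BMP antagonist, was expressed at 0.692 to 0.917 CPM in NC-shRNA against 1.26 to 1.60 CPM in PRMT5-shRNA libraries, a log2 difference of 0.78 (SE 0.24, edgeR adjusted p = 0.287). FSTL3, a follistatin-like activin antagonist and the gene with the highest mean FPKM of the list, went the other way, with 173, 148 and 102 CPM in NC-shRNA against 99.8, 87.5 and 83.6 in PRMT5-shRNA libraries. Its log2 difference was -0.64 (SE 0.187, edgeR adjusted p = 0.272), and NC-shRNA replicate 3 lay near the PRMT5-shRNA values. The 2 activin antagonists FST and FSTL3 thus differed in opposite directions, and neither passed edgeR's adjusted threshold, whereas DESeq2 called both and the likelihood ratio test called FST.

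Among activin, nodal and related GDF ligands, 6 of 9 tested genes lay above 0 (51.2% of all genes tested did). GDF15, a stress-responsive ligand, was at 6.83 ± 0.842 CPM in NC-shRNA against 10.8 ± 0.379 CPM in PRMT5-shRNA libraries (SD, n = 3 each), a log2 difference of 0.66 (SE 0.128, edgeR adjusted p = 0.179). INHBE, an activin subunit, was at 1.09, 1.08 and 2.32 CPM against 2.68, 2.44 and 4.07, with a log2 difference of 1.03 (SE 0.371, edgeR adjusted p = 0.327). GDF1 was lower, at 0.581 to 1.14 against 0.313 to 0.495 CPM (log2 difference -0.98, SE 0.401, edgeR adjusted p = 0.378). INHA, the inhibin alpha subunit and the most abundant by FPKM, had a log2 difference of 0.23 (SE 0.104, edgeR adjusted p = 0.42). Of 10 BMP and related GDF ligands 4 lay above 0 and none passed the looser threshold, and BMP2, the most abundant by FPKM, had a log2 difference of -0.04 (SE 0.0799).

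Receptors and co-receptors had 10 of 16 tested genes above 0, with 3 higher and 2 lower without overlap and none past the looser threshold. For comparison, 51.2% of all genes tested lay above 0, and 11% were higher and 10.7% lower without overlap. SMADs and their regulators had 13 of 18 above 0 with a median of 0.11. SMURF1, a ubiquitin ligase for SMADs and the most abundant there by FPKM, had a log2 difference of 0.15 (SE 0.0729). TGIF2, a corepressor of SMAD-driven transcription, had CPM values of 13.0, 1.59 and 4.47 in NC-shRNA against 19.3, 22.1 and 18.6 in PRMT5-shRNA libraries, a log2 difference of 1.65 (SE 0.656, edgeR adjusted p = 0.364). Its NC-shRNA libraries differed from each other more than its PRMT5-shRNA libraries did.

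The 2 target lists differed in their counts. Of 12 BMP target genes, including the ID genes and SMAD7, 5 lay above 0 and 7 below, with a median of -0.05, 1 higher and 1 lower without overlap, and 1 had an unadjusted p under 0.05. Of 27 TGF-beta target genes, 23 (85.2%) lay above 0 with a median of 0.14, 11 (40.7%) were higher without overlap and none lower, and 8 had an unadjusted p under 0.05. Among all genes tested, 51.2% lay above 0, 11% were higher and 10.7% lower without overlap, and 12.8% had an unadjusted p under 0.05. FN1 (fibronectin), the most abundant by FPKM, was at 5012, 6072 and 5711 CPM in NC-shRNA against 7251, 6947 and 7139 CPM in PRMT5-shRNA libraries. All PRMT5-shRNA libraries lay above all NC-shRNA libraries, with a log2 difference of 0.35 (SE 0.0738, edgeR adjusted p = 0.193). IL11, a cytokine, was the only TGF-beta target gene past the looser threshold, at 0.596, 1.01 and 0.483 CPM against 1.45, 1.10 and 1.63 (log2 difference 1.0, SE 0.35, edgeR adjusted p = 0.32). PMEPA1, a feedback inhibitor of the pathway, and JUNB were picked after their values were seen, and had log2 differences of 0.42 and 0.29. Like FN1, they did not pass edgeR's adjusted threshold and were called by DESeq2. The difference between the target lists was not tested, and SMAD7 belongs to both.

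**Figure D5:**
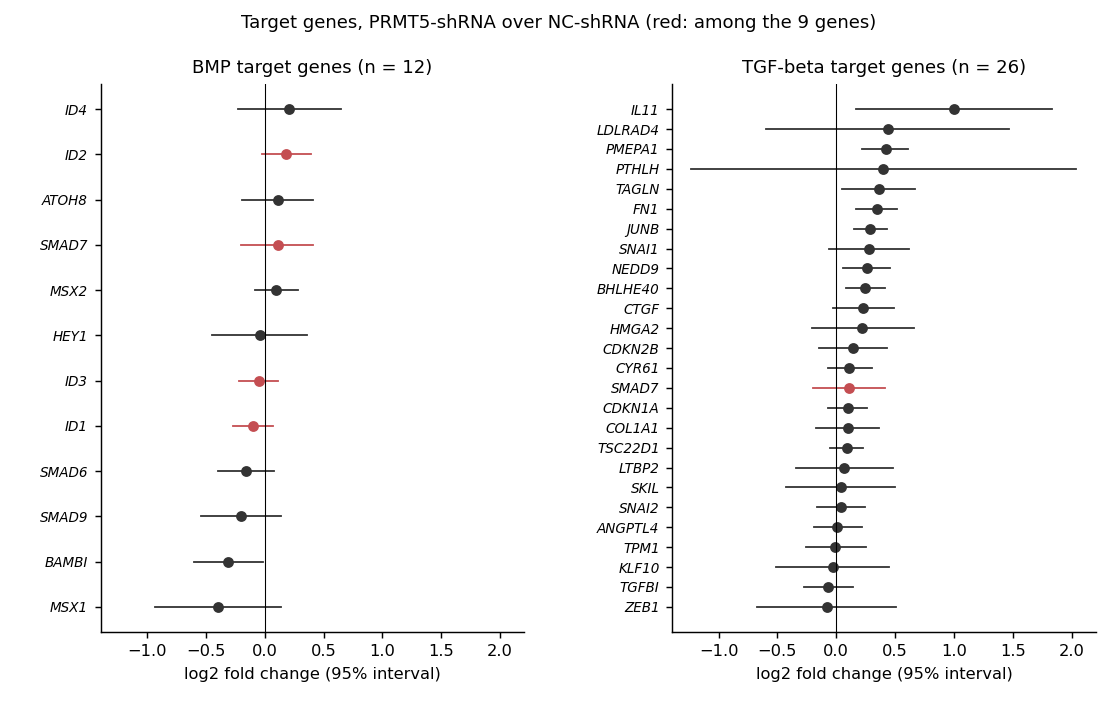
Log2 fold change (x axes, PRMT5-shRNA over NC-shRNA) with 95% intervals of the 12 BMP target genes and 26 of the 27 TGF-beta target genes tested, with red for genes among the 9. The intervals of ID1, ID2, ID3 and SMAD7 span 0, and most TGF-beta target genes lie right of 0, with IL11 at 1.0.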

How the data were processed

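RNA of NCI-H460 cells with NC-shRNA or PRMT5-shRNA, 3 libraries each, was sequenced as stranded mRNA libraries. The submitters' processing notes name cutadapt 1.9, HISAT2 2.0.4, StringTie 1.3.4d and GRCh38, while the methods write a mouse build. The authors deposited estimated counts for each gene, not normalized and already whole, and FPKM values scaled for gene length and library size. Groups came from the sample labels. The study speaks of biological replicates without saying how cultures were separated, so p-values measure the spread between these libraries.

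Counts were scaled by TMM and filtered by filterByExpr, leaving 20295 of 58825 genes, and tested with edgeR 4.0.16 (quasi-likelihood F test, R 4.3.3) with Benjamini-Hochberg adjustment over all of them. An exact permutation test (two-sided) was added for single values. SEs were derived from the F statistic. CPM used TMM library sizes, and log2 CPM a prior count of 2. Alternatives were DESeq2 1.42.0, edgeR's likelihood ratio test, other scalings and filters (such as 10 counts in 3 libraries), counts divided by 4, limma 3.58.1 on log2(FPKM + 1) or log2(FPKM + 0.1) at a mean FPKM of at least 0.5 or without that minimum, a linear model per gene, a block for replicate number and leaving out 1 library at a time. All fits were also run on simulated counts. These changed only genes with higher counts than LRRC32 and did not gather at multiples of 4, so they do not cover LRRC32. The genes and lists were chosen with earlier results of these data known. From each pathway list the text names the gene with the highest mean FPKM, any with an adjusted p under 0.05, and up to 3 higher and 3 lower with the smallest p past 1.5-fold without overlap. Likeness was Pearson's r of log2 CPM. The values of 1 TGF-beta target gene are not reported here.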

Additional observations from a re-analysis of the deposited data

How the results depend on the processing

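The direction of 8 of the 9 genes was the same in every alternative that tested them. ID3 turned from -0.05 to 0.0073 with limma on log2(FPKM + 1), with or without the minimum, and in the linear model, and to 0.0074 with limma on log2(FPKM + 0.1). LRRC32 passed an adjusted p of 0.05 with DESeq2 (log2 difference 1.44) and the likelihood ratio test (1.44), making 1 gene called higher in each against 0 in edgeR's quasi-likelihood test. Over all genes these tests called 530 and 184 against 14, and the replicate block 0. The genes past the looser threshold in the higher direction went from 2 to 1 with limma on log2(FPKM + 0.1) and to 0 with the other FPKM fits, which did not test LRRC32 unless the minimum was dropped, and in which a pseudocount of 1 exceeds the FPKM of LRRC32 and BMPER. With 1 library left out they were 1 to 2, BMPER being lost without NC-shRNA replicate 2 or PRMT5-shRNA replicate 3. Pathway genes past that threshold in the higher direction went from 8 to 3 in the fits on log2(FPKM + 1), and with 1 library left out were 4 to 8, the lowest without PRMT5-shRNA replicate 3. In the lower direction they went from 2 to 1 with counts divided by 4, library totals alone or the replicate block and to 0 in the FPKM fits, and were 1 to 2 with 1 library left out. The cause of these shifts was not tested. Library totals alone moved the median of all genes by 0.050, from 0.007 to 0.057, and the share above 0 from 51.2% to 59.0%. The genes among the 9 at an unadjusted p under 0.05 went from 3 to 6, and those among all 20295 genes tested from 2605 to 2689.

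Deviations of libraries sharing a replicate number correlated at 0.0349, -0.0103 and -0.015 over the genes tested, so no pairing was seen. Whether such libraries shared a culture or day is not given in the sources used here, and these correlations cannot exclude it. With the replicate block LRRC32 had a log2 difference of 1.42 and BMPER of 0.63, both at an edgeR adjusted p of 0.366. LRRC32 rests on 41 to 129 counts per library. With 3 libraries per group and a PRMT5 hairpin that the labels do not name, differences of the size seen in TGFB1, TGFBR2 and ID2 were not separated from the spread after adjustment.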
